A study of Mus musculus with 6 samples.

Results

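A set of 10 genes of the Slit–Robo and netrin guidance systems was followed here in retinal ganglion cells (RGCs), the neurons that send the axons of the optic nerve. They encode the secreted ligands Slit1, Slit2, Slit3 and Ntn1, the Slit receptors Robo1 and Robo2 with their relative Robo3, and the netrin receptors Dcc, Unc5c and Unc5d. Every probe set that the array annotation gives to exactly 1 of these symbols was taken, which made 20 probe sets of 10 genes out of 45037 probe sets and 18193 genes in all. This rule used gene symbols and no measured value.

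RGC axons leave the eye and meet the optic chiasm, where most cross to the contralateral side of the brain and a minority, which arises in ventrotemporal retina in the mouse, turn to the ipsilateral side. Slits repel axons that carry Robo receptors and keep RGC axons within their path at the chiasm. The netrin encoded by Ntn1 is made at the optic disc, where it draws RGC axons that carry Dcc into the optic nerve. The same ligand repels axons that carry Unc5 receptors.

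Transcripts were measured in 3 ipsilateral and 3 contralateral RGC samples of C57BL/6J mice on Affymetrix arrays. Each of 3 rounds gave 1 sample of each kind. In a round, the retinas of 2 litters at E16.5 (the sample records state E16) were pooled after a rhodamine dextran tracer, applied on 1 side of the brain, had travelled back along the axons for 2 h, and the labeled cells were sorted by FACS. The ipsilateral samples hold labeled cells of the retinas on the tracer side, and the contralateral samples hold those of the opposite retinas. The study kept rounds in which ipsilateral RGCs were enriched for Zic2. Both groups had the same genotype and age and went through the same labeling, sorting and cDNA amplification. The values are log2 intensities, and all differences are ipsilateral minus contralateral on that scale, with a round meaning the 2 arrays of the same replicate number. The brightness of a probe set also depends on its probes, so levels were not set against each other between probe sets. In pooled, sorted samples, fewer cells of a type and less RNA per cell cannot be told apart.

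Each array had a median log2 value between 5.80 and 6.70, and the medians of the 2 arrays of a round lay within 0.0649 of each other, so rounds differed more than sides. The labeled cell type was present on all arrays. The 13 RGC genes measured, among them Isl1, Rbpms and Tubb3, averaged log2 11.07 to 11.64 on ipsilateral and 11.44 to 11.97 on contralateral arrays. Pou4f1, which the study names as a marker of contralateral RGCs, is also on this list. Microglia and macrophage markers averaged 8.62 to 9.65 on ipsilateral and 4.73 to 5.73 on contralateral arrays, and retinal progenitor markers 8.68 to 9.63 on ipsilateral and 7.45 to 7.70 on contralateral arrays. The ipsilateral samples thus held more transcript of these marker lists than the contralateral samples did. The study reports transcript of Sox2, a gene of the progenitor list, in ipsilateral RGCs as well as in progenitors. Which cells gave the marker signal was not tested here.

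Promoters are shown for Slit2 and Unc5c, the genes with more than 1 probe set tested and all of them on 1 side in every round (higher in ipsilateral RGCs for Slit2, lower for Unc5c) and for which the table of RefSeq promoters held an entry. The search covered 8 promoters of 6 of the 10 genes, namely Slit2, Slit3, Robo1, Robo2, Robo3 and Unc5c. Dcc was left out of the search, which does not mean that the table lacked an entry for it. The sequences are the 250 bases before the RefSeq start of each gene on build GRCm38.p6, at chr5:47982905-47983154 (plus strand) for Slit2 and chr3:141465314-141465563 (plus strand) for Unc5c. Capitals mark matches to the TATA box TATAAA or to the GC box GGGCGG, the binding site of Sp factors, searched on both strands.
Slit2: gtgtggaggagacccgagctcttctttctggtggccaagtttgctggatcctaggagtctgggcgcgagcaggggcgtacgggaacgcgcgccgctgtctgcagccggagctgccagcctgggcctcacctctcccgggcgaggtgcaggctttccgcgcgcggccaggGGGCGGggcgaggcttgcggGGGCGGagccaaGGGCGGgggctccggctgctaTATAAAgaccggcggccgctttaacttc
Unc5c: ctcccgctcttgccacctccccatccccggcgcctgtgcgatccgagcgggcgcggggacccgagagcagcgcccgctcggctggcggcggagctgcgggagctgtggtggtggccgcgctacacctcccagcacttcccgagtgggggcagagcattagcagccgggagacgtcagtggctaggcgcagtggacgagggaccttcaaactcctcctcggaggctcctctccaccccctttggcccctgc

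The Slit2 window held 1 TATAAA and 3 GGGCGG matches, while the Unc5c window held neither. TATAAA stood in 12.4% and GGGCGG in 32.7% of 32851 mouse promoters of the same length. Another motif, the homeodomain core TAATTA, which can share end letters with TATAAA, stood in 4.84% of them and in neither window shown. Both windows were rich in G and C, at 69.6% for Slit2 and 71.2% for Unc5c, against a median of 52.4% over all promoters. Among the other members, Slit3 had 6 GGGCGG matches, Robo3 had 3 and also 1 TAATTA, and the windows of Robo1 and Robo2 had none of these letters. A match describes letters in a window and not a site in use.

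None of the guidance genes passed the test. Of the 20 probe sets, 18 of 9 genes had a mean log2 value at or above 4.74, the 20th percentile of the array, and were tested. A call needed a change of 2-fold or more and a Benjamini–Hochberg adjusted p under 0.05 from limma over 36029 probe sets. Of the 18 probe sets, 0 were called higher in ipsilateral RGCs (0.244% of all probe sets were) and 0 were called lower (0% of all). Since the fit called no probe set of the array lower, a count of 0 lower does not set the members, or any list below, apart. By gene, at the brightest probe set of each, 0 of 9 were called either way, where 0.358% of 15346 genes were called higher and 0% lower. At an unadjusted p under 0.05, limma gave 0 of the 18, against 2.66% of all probe sets, and an unmoderated test gave 0, against 2.8%. The adjusted p from limma was 1.0 for each of them.

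The largest mean difference among the 18 was 0.71 on the log2 scale, and 0 reached 2-fold. Ipsilateral RGCs were higher in all 3 rounds for 4 of the 18 (22.2%, against 16.7% of all probe sets) and lower in all 3 rounds for 5 (27.8%, against 19.7%). These shares lay near those of the whole array. For 0 of the 18 did the ranges of the 3 ipsilateral and the 3 contralateral values part, while they parted for 3.26% of all probe sets with ipsilateral RGCs higher and 2.03% with ipsilateral RGCs lower. Over the 9 genes the median difference was 0.00 and the median absolute difference 0.17, beside −0.01 and 0.17 over all genes. The round medians were −0.09, 0.16 and 0.03 for the 9 genes in rounds 1 to 3.

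The spread between rounds set the precision of these differences. Standard errors of the 18 differences ran between 0.39 and 0.52, and 5 of the 18 had a 95% confidence interval that stayed within 2-fold either way. In the fit that pairs the 2 arrays of a round (the replicate block), standard errors ran between 0.14 and 0.42 and 14 of the 18 intervals stayed within 2-fold. That fit also called 0 of the 18, where it called 0.208% of all probe sets higher and 0% lower, and the lowest limma adjusted p of a member was 0.170. At an unadjusted p under 0.05 it gave 1 member probe set higher, of Ntn1 (7.17% of all probe sets were higher at that threshold), and 2 lower, both of Unc5c (6.79% of all were lower).

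**Figure D1:**
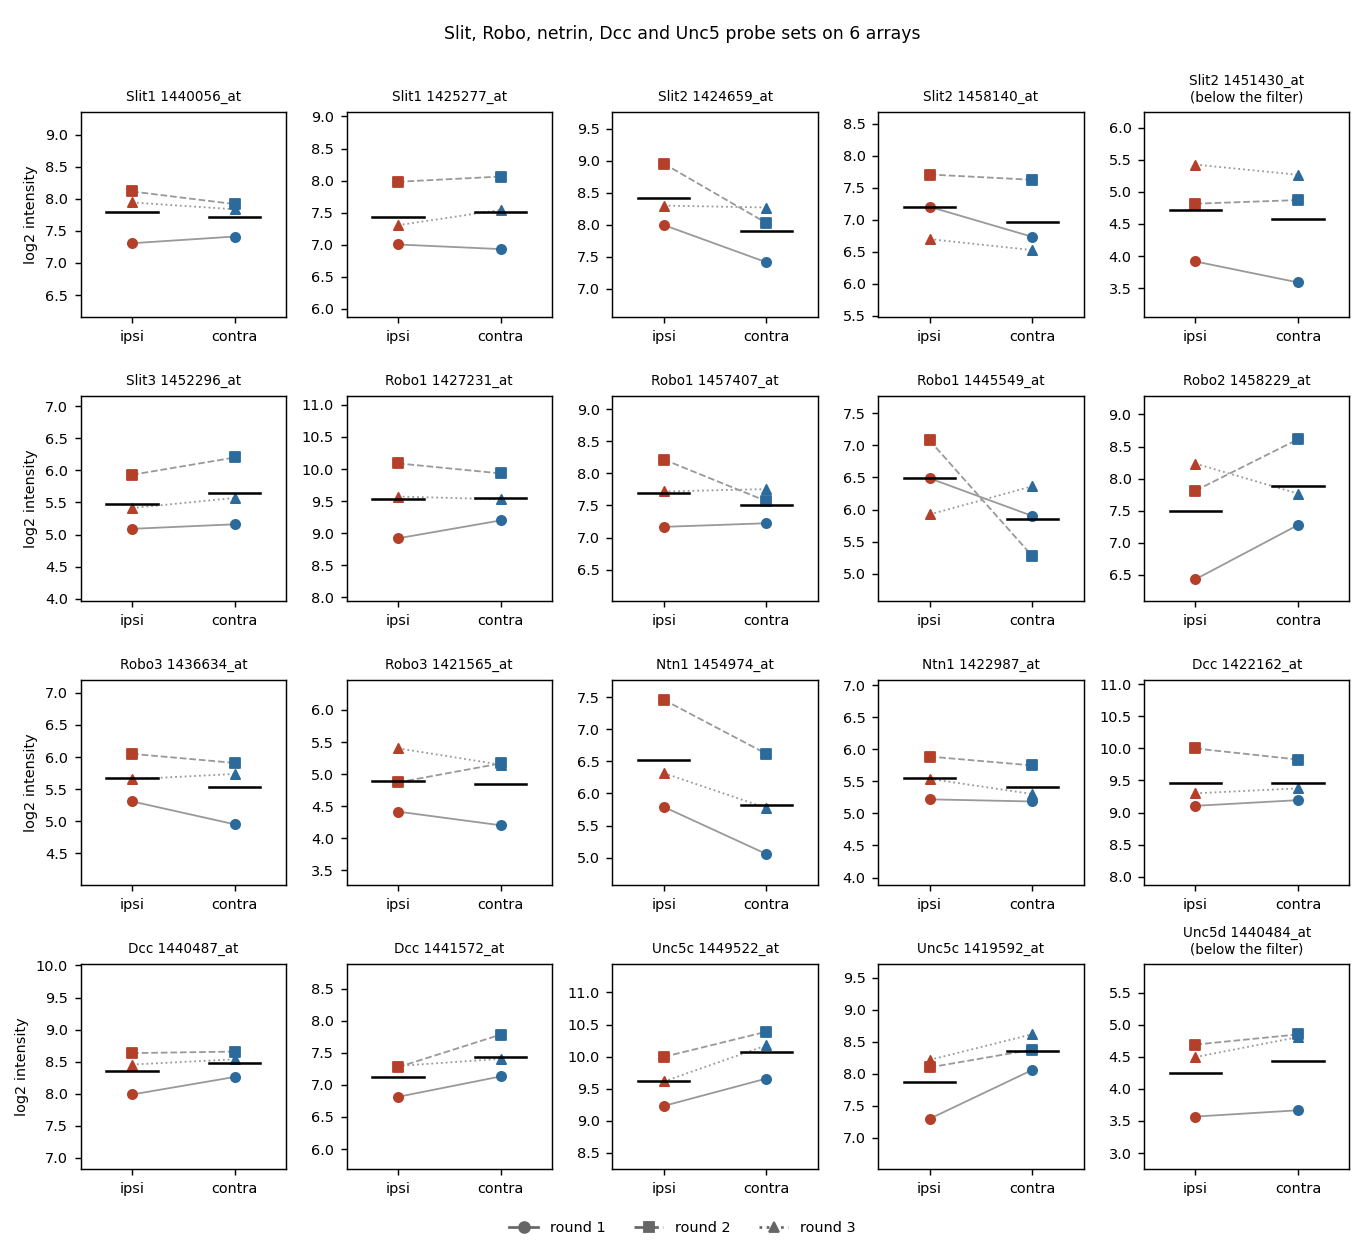
Log2 intensity (vertical axis, drawn over the same span in each panel) of the 20 probe sets of the 10 guidance genes, with ipsilateral RGCs (ipsi) on the left and contralateral RGCs (contra) on the right. Symbols are single arrays, grey lines connect both arrays of a round and black bars are the means of 3 arrays. Round 2 held the highest array in 16 of the 18 probe sets tested and round 1 the lowest in 16, and the values of the sides overlap in every panel. Array medians were also highest in round 2 and lowest in round 1.

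Among the ligands, Ntn1 had the largest difference. Its probe set 1454974_at had log2 values of 5.79, 7.46 and 6.32 in ipsilateral RGCs of rounds 1 to 3, against 5.06, 6.62 and 5.77 in contralateral RGCs. The ipsilateral array was the brighter in every round, by 0.73, 0.84 and 0.54, yet the rounds lay so far apart that the ranges of the sides overlapped. The mean was 6.52 ± 0.85 in ipsilateral and 5.82 ± 0.78 in contralateral RGCs (SD, n = 3 each), a difference of 0.71 or 1.63-fold (SE 0.52, 95% interval −0.41 to 1.82, limma adjusted p = 1.0). In the replicate block fit the interval was 0.34 to 1.07 and the limma adjusted p = 0.170. The second Ntn1 probe set, 1422987_at, had values of 5.22, 5.89 and 5.54 in ipsilateral and 5.19, 5.75 and 5.30 in contralateral RGCs. It lay in the same direction in each round but differed by 0.14 on average (SE 0.40, limma adjusted p = 1.0).

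Slit2, one of the Slits made by RGCs themselves, was likewise the brighter on the ipsilateral array in each round, at both probe sets tested. Its probe set 1424659_at had log2 values of 8.0, 8.95 and 8.30 in ipsilateral RGCs, against 7.41, 8.03 and 8.27 in contralateral RGCs. The difference was 0.58 in round 1 and 0.93 in round 2 but 0.03 in round 3, so the third round hardly contributed. The mean was 8.42 ± 0.49 in ipsilateral and 7.90 ± 0.44 in contralateral RGCs (SD, n = 3 each), a difference of 0.51 or 1.43-fold (SE 0.43, 95% interval −0.41 to 1.43, limma adjusted p = 1.0). In the replicate block fit the interval was −0.01 to 1.04 (limma adjusted p = 0.366). At 1458140_at the values were 7.20, 7.70 and 6.70 in ipsilateral and 6.73, 7.62 and 6.53 in contralateral RGCs, a mean difference of 0.24 (SE 0.44). The largest round difference of this probe set, 0.47, came from round 1, where that of the other probe set came from round 2. Another probe set, 1451430_at, was under the filter at 3.92, 4.82 and 5.43 in ipsilateral and 3.59, 4.87 and 5.27 in contralateral RGCs, and differed by 0.14.

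The other Slits showed small differences. Slit1, which RGCs also make, had values of 7.31, 8.11 and 7.94 in ipsilateral and 7.41, 7.92 and 7.84 in contralateral RGCs at 1440056_at. This probe set differed by 0.07 (SE 0.41, 95% interval −0.81 to 0.94), with the ipsilateral array lower in round 1 and higher in the others. At 1425277_at the values were 7.0, 7.98 and 7.30 in ipsilateral and 6.93, 8.06 and 7.54 in contralateral RGCs. Here the difference was −0.08 (SE 0.44), and the probe sets of Slit1 had opposite signs in each round. Slit3 had values of 5.09, 5.93 and 5.41 in ipsilateral and 5.16, 6.20 and 5.57 in contralateral RGCs, a difference of −0.17 (SE 0.43, 95% interval −1.09 to 0.76). It was lower in ipsilateral RGCs in each round, by at most 0.27, while the values of 1 side spread over more than that between rounds (SD 0.42 in ipsilateral and 0.52 in contralateral RGCs). Each of these limma adjusted p-values was 1.0.

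Of the receptors, Unc5c, which turns the response to netrin into repulsion, differed alike at both of its probe sets. At 1449522_at it had log2 values of 9.23, 9.995 and 9.61 in ipsilateral RGCs, against 9.66, 10.39 and 10.17 in contralateral RGCs. The round differences of −0.43, −0.39 and −0.56 were close to each other. The mean was 9.61 ± 0.38 in ipsilateral and 10.07 ± 0.38 in contralateral RGCs (SD, n = 3 each), a difference of −0.46, or 1.38-fold lower (SE 0.41, 95% interval −1.34 to 0.42, limma adjusted p = 1.0). At 1419592_at the values were 7.30, 8.10 and 8.22 in ipsilateral RGCs, against 8.06, 8.38 and 8.62 in contralateral RGCs, a difference of −0.48 or 1.39-fold lower (SE 0.42, limma adjusted p = 1.0). Unc5c was thus lower in the ipsilateral sample of each round at each probe set, and the ranges of the sides overlapped at both. With the replicate block the intervals were −0.81 to −0.11 at 1449522_at and −0.89 to −0.07 at 1419592_at, with limma adjusted p-values of 0.266 and 0.296. The 13 RGC genes were lower in ipsilateral RGCs in all 3 rounds too, as were 20.2% of all genes. Their median difference was −0.40, and their part in the Unc5c values was not tested.

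Unc5d, a second repulsive netrin receptor, was dim on all 6 arrays. Its 1 probe set had log2 values of 3.57, 4.69 and 4.50 in ipsilateral RGCs, against 3.67, 4.85 and 4.81 in contralateral RGCs, under the filter. It differed by −0.19, and in a fit without a filter its limma adjusted p was 1.0 (SE 0.49).

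Dcc, the receptor for attraction by netrin, had closely matched levels in both populations at its brightest probe set, 1422162_at. The log2 values were 9.11, 9.999 and 9.30 in ipsilateral RGCs, against 9.19, 9.83 and 9.38 in contralateral RGCs. Each round differed by less than 0.2 in size, and the mean difference was 0.00 (SE 0.42, 95% interval −0.89 to 0.89). With the replicate block the interval was −0.36 to 0.37. At 1440487_at the values were 7.99, 8.63 and 8.46 in ipsilateral and 8.26, 8.66 and 8.54 in contralateral RGCs, a difference of −0.13 (SE 0.39). At 1441572_at the values were 6.81, 7.28 and 7.30 in ipsilateral and 7.13, 7.78 and 7.41 in contralateral RGCs, a difference of −0.31 (SE 0.40). These dimmer probe sets were lower in ipsilateral RGCs in each round and the brightest was not, and all 3 had a limma adjusted p of 1.0.

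Robo1 differed between its probe sets. The brightest, 1427231_at, had log2 values of 8.92, 10.09 and 9.57 in ipsilateral RGCs, against 9.20, 9.93 and 9.53 in contralateral RGCs, and a difference of −0.03 (SE 0.43, 95% interval −0.95 to 0.90). At 1457407_at the values were 7.17, 8.22 and 7.72 in ipsilateral and 7.22, 7.57 and 7.75 in contralateral RGCs, a difference of 0.19 (SE 0.42) that came from round 2 alone. The last of them, 1445549_at, had the round differences that scattered most among the 18 (SD 1.12). It had values of 6.49, 7.08 and 5.92 in ipsilateral and 5.90, 5.28 and 6.36 in contralateral RGCs, so that the round differences were 0.59, 1.80 and −0.44. Their mean was 0.65 (SE 0.45, 95% interval −0.31 to 1.61), which had the lowest unadjusted limma p of the 18, at 0.170, and a limma adjusted p of 1.0. The mean over the 3 Robo1 probe sets differed by 0.27 (SE 0.42).

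Robo2, the main Slit receptor of RGC axons, had no steady direction. Its 1 probe set, 1458229_at, had log2 values of 6.43, 7.81 and 8.23 in ipsilateral RGCs, against 7.28, 8.61 and 7.77 in contralateral RGCs. Ipsilateral RGCs were lower in rounds 1 and 2, by −0.85 and −0.80, and higher by 0.47 in round 3. The mean was 7.49 ± 0.94 in ipsilateral and 7.89 ± 0.68 in contralateral RGCs (SD, n = 3 each), and the difference of −0.39 had the lowest interval bound of the 18 (SE 0.52, 95% interval −1.51 to 0.72, limma adjusted p = 1.0). Without ipsilateral replicate 1 it was 0.14. A Robo2 level 2-fold lower in ipsilateral RGCs thus lies within the interval.

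Robo3, a divergent Robo that commissural axons of the hindbrain and spinal cord need to cross the midline, was dim. At 1436634_at it had log2 values of 5.31, 6.05 and 5.66 in ipsilateral RGCs, against 4.95, 5.91 and 5.74 in contralateral RGCs, a difference of 0.14 (SE 0.42). At 1421565_at, with a mean of 4.87 just above the filter, the values were 4.42, 4.87 and 5.40 in ipsilateral and 4.20, 5.17 and 5.15 in contralateral RGCs, a difference of 0.06 (SE 0.44). Both probe sets had differences of either sign over the rounds, and both had a limma adjusted p of 1.0.

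**Figure D2:**
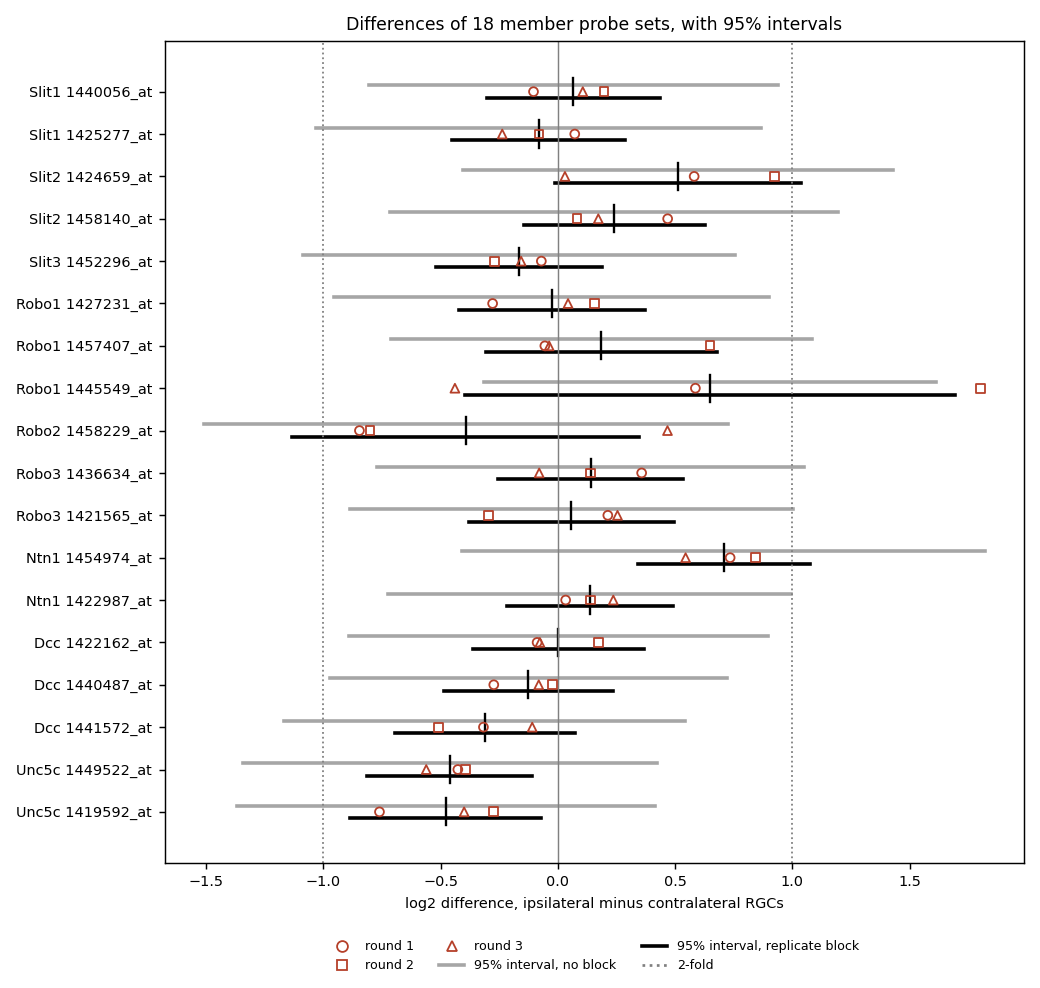
Log2 difference, ipsilateral minus contralateral (horizontal axis), of the 18 guidance probe sets tested, with 1 open symbol per round, a vertical tick at the mean and 95% intervals without (grey) and with the replicate block (black). Without the block every interval crosses 0, and with it those of Ntn1 1454974_at and both Unc5c probe sets do not, although none of the 3 passed adjustment over all probe sets.

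The values of these genes varied widely between rounds. The 6 arrays of a probe set spanned a median of 1.14 on the log2 scale over the 18, and 0.61 after each array was centred on its own median. The mean of round 2 was the highest of the rounds in 15 of the 18, as it was in 61.7% of all probe sets, and the mean of round 1 was the lowest in 16. Array medians were likewise lowest in round 1 (5.81 ipsilateral, 5.80 contralateral) and highest in round 2 (6.70 and 6.65). This order of rounds was thus not particular to the guidance genes, and no span over all probe sets is given beside theirs. Of the 10 genes, Ntn1 had the widest span, 2.40 at 1454974_at, and its lowest ipsilateral value lay under its highest contralateral value.

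Genes that act beside the members were then counted at the brightest probe set of each. Of 16 measured relatives and binding partners (other netrins, Robo4, Unc5a, Unc5b, Neo1, Dscam, Draxin and the like), 0 were called in either direction, 1 was higher in ipsilateral RGCs in all 3 rounds (6.25%, against 17.6% of all genes) and 5 were lower in all 3 (31.2%, against 20.2%). An unadjusted p under 0.05 was reached by 0 with limma and by 1 with an unmoderated test, against 2.66% and 2.8% of all probe sets. Their median difference was −0.12. Ntng1, a membrane-anchored netrin that does not bind Dcc, had log2 values of 8.17, 8.23 and 8.31 in ipsilateral RGCs, against 9.12, 8.71 and 9.22 in contralateral RGCs. The ranges of the sides did not overlap, and Ntng1 differed by −0.78 (SE 0.39), with a limma adjusted p of 1.0, and of 0.173 in the replicate block fit. Draxin, a secreted protein that binds Dcc and netrins, differed by −0.53 (SE 0.49), and Dscam, another receptor for netrin, by −0.52 (SE 0.40), each with a limma adjusted p of 1.0.

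Of 22 measured genes that carry or regulate the Slit and Robo signal, 0 were called in either direction. With limma and with the unmoderated test, 0 had an unadjusted p under 0.05, against 2.66% and 2.8% of all probe sets. In all 3 rounds, 0 were higher in ipsilateral RGCs (17.6% of all genes were) and 13 were lower (59.1%, against 20.2% of all genes), with a median difference of −0.16. The RGC genes lay on the same side, 13 of 13 lower in each round, and their part in this count was not tested. Sos2, an exchange factor for Ras and Rac, had values of 6.56, 6.91 and 7.08 in ipsilateral and 7.16, 7.97 and 7.23 in contralateral RGCs with no overlap of the sides, and differed by −0.60 (SE 0.41). Srgap1, a GTPase-activating protein that binds Robo, differed by −0.59 (SE 0.48), and Ndfip2, an adaptor of Nedd4 ubiquitin ligases, by −0.38 (SE 0.42), each with a limma adjusted p of 1.0.

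Of 20 measured genes of the netrin and Dcc signal, 0 were called in either direction, 1 was higher and 11 were lower in all 3 rounds (5% and 55%, against 17.6% and 20.2% of all genes), and the median difference was −0.27. By unadjusted p, 0 were under 0.05 with limma and 2 with the unmoderated test, against 2.66% and 2.8% of all probe sets. Siah2, a ubiquitin ligase of a family that degrades Dcc, differed by −0.76 (SE 0.49), and Trim67, a ubiquitin ligase of the brain, by −0.53 (SE 0.44). Dock1, which activates Rac downstream of Dcc, went the other way. Its values lay near the filter level, at 4.75, 4.82 and 5.87 in ipsilateral and 3.93, 4.35 and 4.91 in contralateral RGCs, a difference of 0.75 (SE 0.45). All 3 had a limma adjusted p of 1.0. The lists share 3 genes, and of 74 distinct genes on the 4 lists given here 33 were lower and 9 higher in ipsilateral RGCs in all 3 rounds. The RGC genes, which lay on the same side (13 of 13 lower in each round, median −0.40), stand beside these counts, and their part in them was not tested. Tubb3 is on both the netrin and Dcc list and the RGC list, so it counts in each.

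Heparan sulfate is a sugar chain that Slits and Robos bind together. The list held genes of its core proteins and enzymes and also Dag1, which is neither. Of 19 measured genes, 0 were called in either direction and the median difference was 0.10. In all 3 rounds, 7 were higher, Dag1 among them, and 5 lower (36.8% and 26.3%, against 17.6% and 20.2% of all genes). By unadjusted p under 0.05, limma and the unmoderated test each gave 3 of the 19, against 2.66% and 2.8% of all probe sets. The 3 that limma gave were all 2-fold or more higher. Gpc4, a glypican, had log2 values of 7.88, 9.77 and 8.94 in ipsilateral RGCs, against 6.42, 6.99 and 6.45 in contralateral RGCs. The sides did not overlap, and the difference was 2.25 or 4.75-fold (SE 0.49), with a limma adjusted p of 0.117, and of 0.0740 in the replicate block fit. Without ipsilateral replicate 1 the limma adjusted p of Gpc4 was 0.0029, and without contralateral replicate 2 it was 0.0490. With any other single array left out, Gpc4 was not called. The study lists Gpc4 among the genes higher in ipsilateral RGCs by its own test, so the call of Gpc4 depends on the test used. The syndecan Sdc4 had values of 6.59, 6.32 and 6.66 in ipsilateral and 4.11, 4.80 and 5.65 in contralateral RGCs, and differed by 1.67 (SE 0.45, limma adjusted p = 0.342). Sdc2, a second syndecan, had values of 6.85, 7.82 and 7.19 in ipsilateral and 5.98, 6.41 and 6.01 in contralateral RGCs, and differed by 1.15 (SE 0.41, limma adjusted p = 1.0).

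Marker lists of other cells are given beside the values of Ntn1, Slit2 and Gpc4, of which none was called in the main limma fit. Of 12 microglia and macrophage markers measured, 9 were called higher (C1qb, C1qc, Csf1r, Tyrobp, Aif1, Ctss, P2ry12, Laptm5 and Cd53), 11 were higher in all 3 rounds and the median difference was 4.35. Of 11 retinal progenitor markers, 3 were called higher (Sox2, Sox9 and Fabp7), 9 were higher in all 3 rounds and the median was 1.56. Among the 11 cell cycle markers, Spc25 was called higher, 10 were higher in all 3 rounds and the median was 1.92. Of 12 immediate early genes, Egr2 and Zfp36 were called higher, 10 were higher in all 3 rounds and the median was 1.20. Of 9 amacrine, horizontal and photoreceptor markers, 0 were called, 5 were higher and 1 lower in all 3 rounds, and the median was 0.38. None of these markers was called lower. Over all genes, 0.358% were called higher and 0% lower, and 17.6% were higher and 20.2% lower in all 3 rounds.

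For the optic disc, where netrin is made, 8 astrocyte and disc glia markers were listed and 6 were tested. Pax2 had no probe set annotated to that symbol alone, and Aldh1l1 lay under the filter. The 6 had a mean log2 value of 6.73 to 8.02 on ipsilateral and 6.44 to 7.45 on contralateral arrays, with a median difference of 0.11 and 0 called. Gfap and Aqp4 averaged 5.94 and 5.36 in ipsilateral and 5.86 and 5.38 in contralateral RGCs. Slc1a3 and Vim, which progenitors also express, differed by 1.59 and 0.82, and both were higher in all 3 rounds. S100b differed by 0.14 and Pdgfra by −0.37. Endothelial and pericyte markers (7 measured) had a median difference of 0.00, and pigment epithelium and melanocyte markers (5 measured) one of −0.04, with 0 called on either list. The part of progenitor, cycling, disc glia and immune cell transcripts in the Ntn1, Slit2 and Gpc4 values was not tested.

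**Figure D3:**
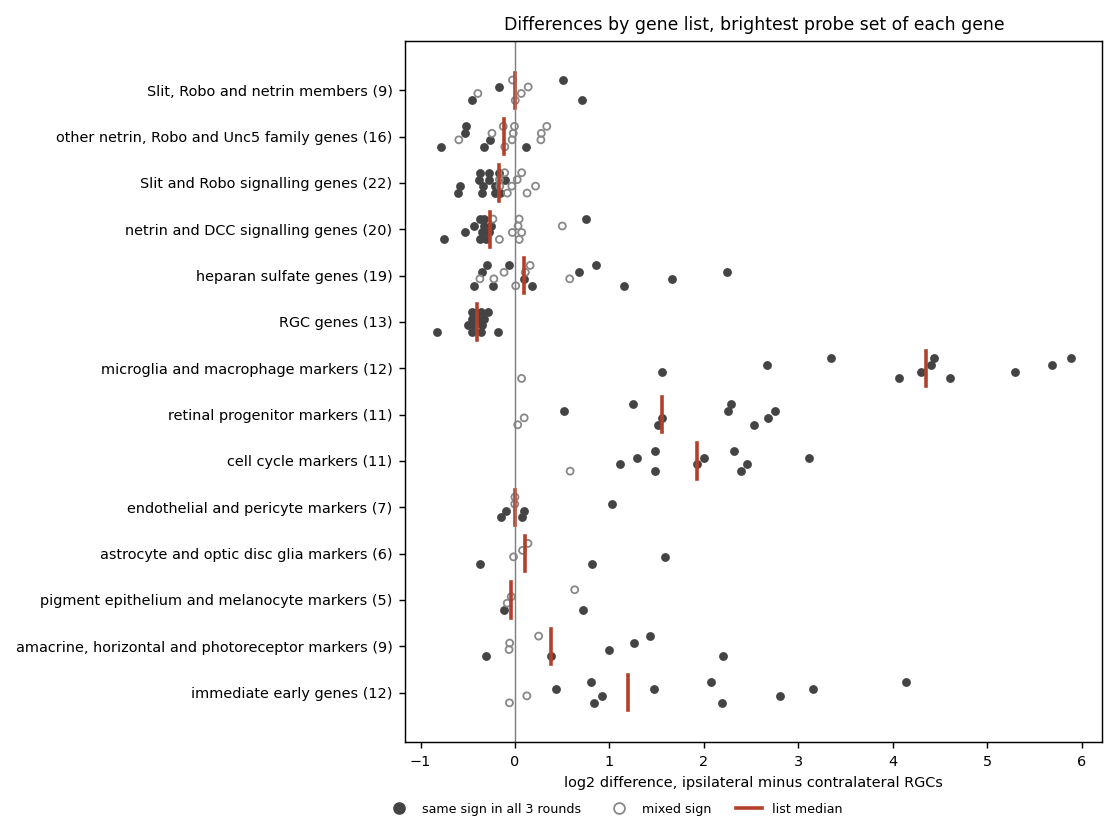
Log2 difference, ipsilateral minus contralateral (horizontal axis), of each gene at its brightest probe set for the 9 guidance genes tested, the 4 lists of related genes and the 9 marker lists, with the number of genes in brackets. Filled points had the same sign in all 3 rounds, open points did not, and red ticks are list medians. The guidance genes lie around 0, all 13 RGC genes lie below it, and microglia markers lie farthest above it with a median of 4.35.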

How the data were processed

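Gene expression was measured on 6 Affymetrix mouse genome arrays, 3 per group. Each deposited value is the log2 intensity of a probe set, which the authors made with RMA in Affymetrix Expression Console 1.1 (background correction, normalization, summary of probes). Whether all arrays were normalized together is not stated, and no genome build is given for the array annotation. The methods ask for a change of 2-fold with a corrected p (Benjamini–Hochberg) under 0.05 and name no paired test. Under that rule the study, which used GeneSpring, lists probe sets in both directions. The limma fit used here called 88 probe sets higher and 0 lower, so its counts are not those of the study.

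Of 45101 probe sets, 64 controls were left out, and the rest had to reach the 20th percentile of mean log2 values over the 6 arrays (4.74). By the array annotation, 34945 probe sets had 1 gene, 932 had several and 9160 had none. The RefSeq table held 34741 of the Entrez identifiers of the first and lacked 204. The test was limma (version 3.58.1, lmFit and eBayes without a block, under R 4.3.3), and the script was tested on simulated data. Pairs come from the replicate number of the labels. With 3 arrays a side an exact two-sided permutation test cannot go below p = 0.1, so p-values are those of limma.

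Replicate numbers pair the samples, since the methods treat the 2 samples of a round alike. As a check, deviations from group means correlated at r = 0.511, 0.541 and 0.612 for equal numbers and at −0.353 to −0.207 for unequal ones. Deviations from a group mean cancel over its arrays, so the negative values follow from the positive ones and are no separate check. The members and lists were chosen with earlier results of these data known. All member probe sets are reported; of every other list the called genes, or else up to 3 with the largest difference and 1 sign in all rounds, are named, and of marker lists without a call mostly counts are given. Alternatives were the block, other filters, normalizations, estimators and thresholds, and leaving out single arrays. Leaving out a whole round was added after the data were seen.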

Additional observations from a re-analysis of the deposited data

How the results depend on the processing

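The counts of guidance probe sets called, 0 in each direction, were the same under every alternative run, with a lowest limma adjusted p of 0.170 under the replicate block and 0.174 with array weights. The filter at the 50th percentile left 12 guidance probe sets tested, with none of Ntn1, Slit3 or Robo3 among them. The block, which pairs the arrays of a round, changed no call of the members or of the 4 related lists and left 0 called. Of 174 single differences under the alternatives that keep all arrays, 167 kept their direction and 7 did not. Robo1 1427231_at was 0.018 after a second quantile normalization and 0.033 with array weights, and Dcc 1422162_at was −0.042 with arrays centred on their medians and −0.062 with weights. With weights, Robo1 1445549_at was −0.20, Robo2 0.30 and Robo3 1436634_at −0.046. Weights ran between 0.28 and 6.12, the highest on the arrays of round 3, and their estimation stopped before its tolerance. The heparan sulfate count of genes called higher was 1 (Gpc4) with the filter at the 50th percentile, with median centring, with an intensity trend and robust estimation and with the mean of all probe sets, and 4 with weights (Gpc4, Sdc2, Sulf1, Sdc4). With single arrays left out it was 0 to 1. Over all probe sets 88 were called higher and 0 lower, against 179 higher with the trend, 1001 higher and 148 lower with weights, 0 with the unmoderated test and 53 to 220 higher with 1 array left out. With 1 array left out, the median of all genes lay between −0.26 and 0.22 and that of the 9 member genes between −0.26 and 0.28. Single differences then ranged over −0.10 to 0.31 and −0.37 to 0.19 for Slit1 1440056_at and 1425277_at, −0.011 to 0.57 for Slit2 1458140_at, −0.41 to 0.11 for Slit3, −0.31 to 0.28 and −0.073 to 0.45 for Robo1 1427231_at and 1457407_at, −0.76 to 0.14 for Robo2, −0.15 to 0.33 and −0.26 to 0.30 for Robo3 1436634_at and 1421565_at, −0.033 to 0.30 for Ntn1 1422987_at, and −0.26 to 0.18 and −0.26 to 0.059 for Dcc 1422162_at and 1440487_at. These kept their sign: Ntn1 1454974_at (0.24 to 1.11), Slit2 1424659_at (0.24 to 0.72), Robo1 1445549_at (0.36 to 0.94), Dcc 1441572_at (−0.47 to −0.14), and Unc5c 1449522_at (−0.67 to −0.27) and 1419592_at (−0.65 to −0.19). Without round 1, Robo1 1427231_at was 0.10 and Robo3 1421565_at −0.020. Without round 2, Robo1 1457407_at was −0.046 and Dcc 1422162_at −0.083, and without round 3, Robo3 1421565_at was −0.041. The cause of these shifts was not tested.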
